A study of Mus musculus with 6 samples.

Results

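The genes described here are the nuclear genes of the oxidative phosphorylation complexes in mDPCs, dental papilla cells of the mouse, which hold odontoblasts and the cells of the future pulp. They were chosen by name and biotype among the protein-coding genes of the count table, as every gene whose name starts with Nduf, Uqcr or Atp5, the genes Sdha to Sdhd, the Cox4 to Cox8 genes, Cyc1 and Cycs. This gave 95 of the 31613 genes in the table. Of these, 76 encode subunits of the complexes themselves, 36 in complex I, 4 in complex II, 9 in complex III, 11 in complex IV and 16 in complex V. The other members were Cycs, 8 assembly factors of complex I, 7 tissue isoforms of complex IV subunits, and 3 further genes, Cox7a2l, Ndufa4l2 and Atp5s.

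Bulk RNA sequencing was carried out on mDPCs of C57BL/6J mice at postnatal day 6, with 3 control libraries. The other 3 libraries are Dmp1-Cre;Setd2 fl/fl and are called mutant here. SETD2 is the histone methyltransferase that places trimethylation on lysine 36 of histone H3 (H3K36me3). Controls carry the label wild type and are Setd2 fl/fl mice without Cre in the methods of the study, and both groups came from mice of the same sex. The Dmp1 promoter drives Cre in odontoblasts, so that pulp cells, which were collected with them, keep Setd2. Each library is a pool of RNA from 3 biological replicates, and with 6 mice per genotype listed for this collection, pools may share mice, so that p-values measure only the spread between these pools.

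Oxidative phosphorylation takes place in the inner mitochondrial membrane. Complex I (NADH dehydrogenase) and complex II (succinate dehydrogenase) pass electrons to ubiquinone, complex III (the cytochrome bc1 complex) hands them to cytochrome c, and complex IV (cytochrome c oxidase) gives them to oxygen. Protons pumped by complexes I, III and IV drive complex V, the ATP synthase. A small number of subunits is encoded by mitochondrial DNA, none of them in complex II, and all others are made in the cytosol from nuclear genes and imported. Secretory odontoblasts make large amounts of collagen and phosphoproteins, and the nuclear genes of respiration are active in nearly every cell type, so their level in a bulk sample is an average over all cells collected. In such samples fewer cells of a type and less RNA per cell cannot be told apart.

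Total counts per library ranged from 18557647 to 19210750. Setd2 itself, counted over the whole gene, was at 98.0, 96.5 and 92.0 CPM (counts per 1000000 of the scaled library size) in controls and 102, 98.5 and 96.0 CPM in mutant libraries, so that this count does not tell the genotypes apart. Of 10 odontoblast markers (Dspp, Dmp1, Col1a1 and others), 7 were lower at the study thresholds, against 2.71% of all genes. These thresholds are an unadjusted p under 0.05 with a log2 fold change past -0.58 or 0.58. The summed level of the markers was 99220 to 116500 CPM in controls and 9163 to 57640 CPM in mutant libraries, highest there in replicate 3. The 8 markers of dental papilla mesenchyme were present in both groups, at 8067 to 9346 and 7157 to 9987 CPM. Replicate 3 of both groups stood apart from the other libraries. The deviations of replicate 3 from the group means correlated across genes at 0.663 between the groups. With libraries of the other group that had another number, they correlated at -0.583 to -0.508. Deviations cancel out within a group by construction, so these negative values largely follow from the positive one and add no evidence. Markers of dental epithelium were highest in replicate 3 of both groups, at 30510 CPM in control and 50360 CPM in mutant replicate 3 against 2312 to 7370 CPM elsewhere.

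Sequence immediately before the transcription start is shown for a small set of members, Cycs as a gene known for regulation by nuclear respiratory factor 1, Ndufa10, Ndufaf4 and Cox7a2l because their fold changes are among the highest described below, and Cox6b1 with its testis isoform Cox6b2. RefSeq windows from 250 bases before to 50 bases after the start were matched by symbol for 75 of the 95 members on build GRCm38.p6. Each line gives the 100 bases before the RefSeq start, 5′ to 3′ on the strand of the gene. For Ndufa10 and Cox6b1 this start lies inside the gene span of the count table, so the stretch overlaps that span. Capitals mark matches, on either strand, to GCGCATGCG (nuclear respiratory factor 1) or CCAAT.
Cycs, chr6:50566570-50566669, minus strand: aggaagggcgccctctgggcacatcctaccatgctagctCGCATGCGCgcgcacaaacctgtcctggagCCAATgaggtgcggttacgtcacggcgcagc
Ndufa10, chr1:92473759-92473858, minus strand: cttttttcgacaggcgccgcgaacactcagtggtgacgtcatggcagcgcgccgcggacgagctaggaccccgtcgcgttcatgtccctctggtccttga
Ndufaf4, chr4:24897983-24898082, plus strand: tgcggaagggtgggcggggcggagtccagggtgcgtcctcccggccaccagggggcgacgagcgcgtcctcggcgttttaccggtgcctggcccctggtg
Cox7a2l, chr17:83514334-83514433, minus strand: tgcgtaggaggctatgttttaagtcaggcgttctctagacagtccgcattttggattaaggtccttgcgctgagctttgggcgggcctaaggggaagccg
Cox6b1, chr7:30626115-30626214, minus strand: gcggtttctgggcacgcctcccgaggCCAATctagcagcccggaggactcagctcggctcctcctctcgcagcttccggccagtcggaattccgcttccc
Cox6b2, chr7:4753095-4753194, minus strand: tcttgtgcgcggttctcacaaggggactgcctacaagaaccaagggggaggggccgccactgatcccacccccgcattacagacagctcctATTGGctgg

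These 6 stretches are 54.0% to 75.0% GC. Over the whole windows of 300 bases, GCGCATGCG was found in 11 of 80 windows of members (13.8%) and in 2.79% of 17250 windows of protein-coding genes. The letters AAGATGGCG, a match to the factor YY1, were found in 8 windows of members (10.0%) and in 2.21% of those of protein-coding genes. TCAAGGTCA, the site of oestrogen-related receptors, was in 2 windows of members (2.5%) and in 0.301% of the coding set. For CCGGAAGT, an ETS site, the shares were 6.25% and 6.11%, for TATAAA 10.0% and 9.08%, and for CCAAT 43.8% and 37.2%. GCGCATGCG and its reverse complement overlap, and a window that holds both counts once. A match is a description of letters and not of a bound site.

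The question of the comparison was whether the nuclear genes of respiration differ between mutant and control mDPCs at postnatal day 6. In the edgeR quasi-likelihood fit over all 16519 genes tested, 0 members were lower and 0 were higher at the study thresholds. The same thresholds called 448 of all genes lower (2.71%) and 181 higher (1.1%). Adjusted over all genes, p was under 0.05 for 0 members and 0 genes in all (0%) by edgeR. By DESeq2 it was under 0.05 for 0 members, against 0.926% of all genes with an adjusted p, and by limma voom with quality weights for 0 members, against 8.38%. At an unadjusted p under 0.05 alone, 0 members were lower and 2 were higher, against 4.41% and 3.17% of all genes. The filter on low counts left 91 members, and Cox6a2, Cox7b2, Cox8b and Cox8c did not pass it.

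Fold changes of the members were small. The median log2 fold change over the 91 members was 0.107, against 0.017 over all genes, and 76 members had a positive value against 52.6% of all genes. Values ran from -0.29 for Ndufa4l2 to 0.56 for Ndufaf4. The median standard error (SE) was 0.155 for members and 0.202 for all genes. For 59 of the 91 members the whole 95% confidence interval lay between -0.58 and 0.58, so that a change of the study's size was outside the interval, and this held for 38.9% of all genes. For the remaining members the interval reached past that size on at least one side.

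**Figure D1:**
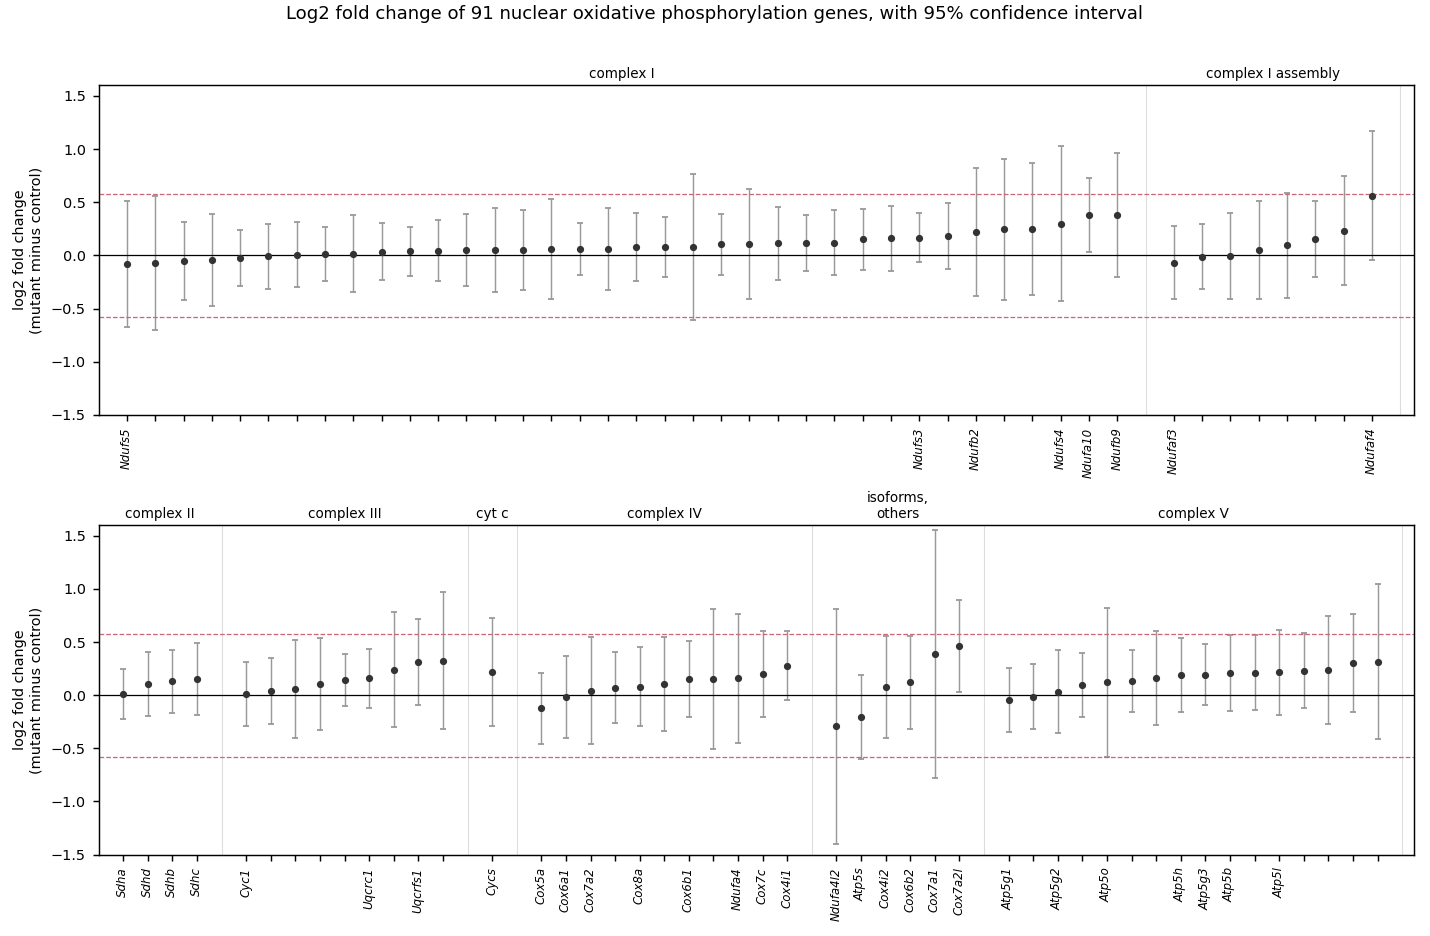
Log2 fold change (mutant minus control, y axis) of the 91 members tested, by complex and ordered by value (x axis), with names for the genes described in the text. Points are edgeR estimates, bars are 95% confidence intervals over 3 libraries a group, and dashed lines mark -0.58 and 0.58. No point lies past the dashed lines, and only the intervals of Ndufa10 and Cox7a2l exclude 0.

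The summed level of the members was 8107 ± 157 CPM in controls and 8966 ± 1246 CPM in mutant mDPCs (SD, n = 3), so that the mutant libraries spread more widely among themselves. The excess of positive values was carried mainly by 1 library. Mutant replicate 2 had the highest level of all 6 libraries for 60 of the 91 members (65.9%), against 29.3% of all genes. Set against the control mean, the median log2 level of the members was 0.002, 0.251 and 0.035 in mutant replicates 1, 2 and 3, and controls 1, 2 and 3 were at 0.008, 0.027 and -0.021. Without replicate 2 of the mutant group, the median log2 fold change was 0.014 and 51 members were positive, and without replicate 1 of that group these values were 0.172 and 86. Between libraries with the same number, 44 of the 91 members were higher in the mutant library for number 1, 83 for number 2 and 64 for number 3. Of the 16519 genes tested, 8284, 8305 and 8855 were higher in the mutant library of these pairs. Odontoblast markers were lowest in the same replicate 2, and mitochondrially encoded transcripts made up 4.5% of its counts against 1.4% to 3.13% in the other libraries. Macrophage markers were also highest there, at 1149 CPM in sum against 481 to 1027 CPM elsewhere, as were neutrophil markers, at 142 CPM against 6.79 to 72.3 CPM. The part of these in the level of the members was not tested.

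**Figure D2:**
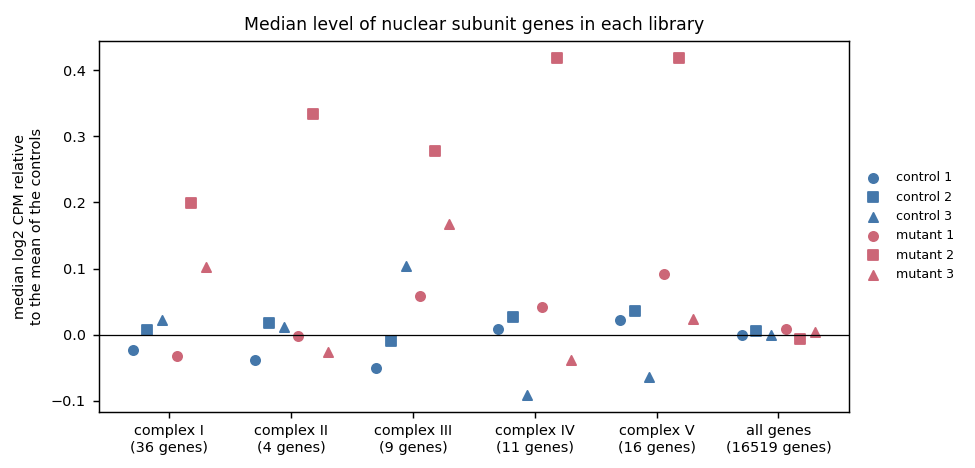
Median log2 CPM relative to the mean of the controls (y axis) over the subunit genes of each complex and over all genes tested (x axis), for each of the 3 control (blue) and 3 mutant (red) libraries. In every complex mutant replicate 2 is the highest, from 0.199 in complex I to 0.419 in complex IV, whereas all genes stay near 0. All genes stay there largely because the libraries are scaled on the bulk of genes.

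Of the 91 members tested, 0 had all 3 mutant libraries below all controls, against 7.98% of all genes. In 5 of the 91 all 3 lay above all controls, against 7.26% of all genes. These were Ndufa10, Ndufs3, Ndufaf4, Cox4i1 and Cox7a2l, of which Ndufs3 and Ndufaf4 are named because of that count. Of the members that were not tested, Cox6a2 also had all 3 mutant libraries above all controls, on 6 counts or fewer per library.

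In complex I, all 36 subunit genes were tested. Their summed level was 2117, 2174 and 2106 CPM in controls and 2094, 2550 and 2149 CPM in mutant libraries, a ratio of means of 1.06. Only replicate 2 lay outside the range of the other 5 libraries by more than those differed among themselves. Of the 36 genes, 30 had a positive log2 fold change, and the median was 0.069.

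Ndufa10 encodes an accessory subunit attached to the membrane arm. The gene spans 92439010 to 92473860 of chromosome 1 (GRCm38) and was at 60.1, 65.1 and 67.9 CPM in controls and 77.0, 101 and 72.8 CPM in mutant mDPCs. All 3 mutant libraries were above all controls, with replicate 2 the highest. The log2 fold change was 0.38 (SE 0.147, edgeR adjusted p = 0.641), with a 95% confidence interval from 0.031 to 0.726. The unadjusted p of 0.0367 by edgeR was the smallest of the members, and rose to 0.119 in the edgeR fit without control replicate 1 and 0.0699 without mutant replicate 2, where the log2 fold change was 0.22.

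Ndufs3, a core subunit of the peripheral arm, was at 64.5, 65.5 and 60.1 CPM in controls and 66.7, 75.4 and 71.3 CPM in mutant libraries, with a log2 fold change of 0.17 (SE 0.098, edgeR adjusted p = 0.699). Its groups were separate by about 1 CPM. Ndufs5, an accessory subunit chosen after its values were seen, was even in controls, at 32.4, 32.4 and 32.2 CPM, and stood at 18.9, 35.1 and 37.8 CPM in mutant mDPCs. Replicate 1 was thus the one low library. The edgeR log2 fold change was -0.08 (SE 0.249, adjusted p = 0.945 by the same fit). By limma voom with quality weights, Ndufs5 passed the study thresholds as lower (log2 fold change -0.62), as did Ndufa4l2, which makes 2 members against 6.67% of all genes.

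Among the 8 assembly factors of complex I, which bind the growing complex and are absent from the finished one, 5 had a positive log2 fold change and the median was 0.072. Ndufaf4, on chromosome 4 from 24898083 to 24905001, had the largest log2 fold change of the members. It was at 11.6, 11.8 and 10.3 CPM in controls and 13.7, 23.4 and 12.5 CPM in mutant mDPCs. Replicate 2 was far above the others, and the remaining 2 mutant libraries were a little above the controls. The log2 fold change was 0.56 (SE 0.257, edgeR adjusted p = 0.667), and 0.23 (SE 0.154) without mutant replicate 2. Ndufaf3 was the member of complex I with the smallest p among negative values, at 14.9, 13.8 and 15.7 CPM against 12.8, 13.8 and 15.7 CPM, a log2 fold change of -0.07 (SE 0.144) with overlapping groups.

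Of 10 further complex I assembly genes outside the Nduf names (Nubpl, Foxred1, Timmdc1, Ecsit and others), 0 were called in either direction, with 6 positive values and a median log2 fold change of 0.044.

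Complex II, which is also an enzyme of the tricarboxylic acid cycle, has 4 subunits, all of them nuclear. Sdha encodes the flavoprotein that oxidises succinate, Sdhb the iron-sulphur subunit, and Sdhc and Sdhd the membrane anchors. Sdha, on chromosome 13 from 74322254 to 74350280, was at 207, 213 and 224 CPM in controls and 213, 229 and 205 CPM in mutant mDPCs, a log2 fold change of 0.01 (SE 0.1, 95% confidence interval -0.227 to 0.248). Its groups overlapped fully.

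Sdhb was at 95.8, 98.2 and 91.9 CPM in controls and 95.3, 121 and 96.0 CPM in mutant libraries, with a log2 fold change of 0.13 (SE 0.125). For Sdhc the values were 137, 145 and 136 CPM against 150, 184 and 130 CPM, with a log2 fold change of 0.15 (SE 0.142). Sdhd was at 98.3, 100.4 and 107 CPM against 97.9, 127 and 105 CPM, with a log2 fold change of 0.11 (SE 0.126). In these 3 genes the group difference was smaller than the spread of the mutant libraries, where replicate 2 was the highest. The adjusted p by edgeR of the 4 genes ranged from 0.789 to 0.985, and all 4 confidence intervals lay within 0.58 of 0. The 4 assembly genes of complex II held 0 calls, with a median log2 fold change of 0.226.

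All 9 subunit genes of complex III had a positive log2 fold change, with a median of 0.147 and 0 calls. Their summed level was 825, 847 and 846 CPM in controls and 859, 1057 and 865 CPM in mutant libraries, a ratio of 1.11. These sums did not overlap, although replicates 1 and 3 of the mutant group exceeded the highest control by less than 20 CPM. Without mutant replicate 2 the ratio was 1.03. Uqcrc1, a core subunit facing the matrix, had the highest mean CPM of the complex. The gene spans 108936633 to 108949623 of chromosome 9 and was at 152, 165 and 183 CPM in controls and 173, 202 and 184 CPM in mutant mDPCs, a log2 fold change of 0.16 (SE 0.117).

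Uqcrfs1 encodes the Rieske iron-sulphur protein, which takes the first electron from ubiquinol, and had the smallest p of the complex. It was at 52.6, 48.4 and 63.3 CPM in controls and 58.9, 83.3 and 61.6 CPM in mutant libraries, with overlapping groups and a log2 fold change of 0.31 (SE 0.171, edgeR adjusted p = 0.696), which was 0.14 without mutant replicate 2. Cyc1, the haem-bearing subunit that passes electrons to cytochrome c, was at 116, 125 and 138 CPM against 112, 127 and 143 CPM, a log2 fold change of 0.01 (SE 0.128). In both groups Cyc1 was lowest in replicate 1 and highest in replicate 3. Of 6 assembly genes of complex III, 0 were called, and the median log2 fold change was 0.045.

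Cycs encodes the somatic form of cytochrome c, the soluble carrier between complexes III and IV (chromosome 6, 50562563 to 50566538). Cycs was at 41.6, 41.8 and 33.0 CPM in controls and 43.0, 58.7 and 33.7 CPM in mutant mDPCs. Replicate 3 was the lowest library of each group. The log2 fold change was 0.22 (SE 0.213, edgeR adjusted p = 0.801), and its confidence interval ran from -0.286 to 0.723, an interval that includes 0.58.

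In complex IV, 9 of 11 subunit genes had a positive log2 fold change, with a median of 0.107. The summed level was 1289, 1294 and 1224 CPM in controls and 1278, 1632 and 1253 CPM in mutant libraries, a ratio of 1.09, and the groups overlapped. Cox4i1 encodes the common isoform of subunit 4, which lies at the contact with the catalytic core, and had the highest mean CPM of the subunit genes of the complex. The gene spans 120668222 to 120674207 of chromosome 8 and was at 168, 175 and 190.6 CPM in controls and 191.3, 253 and 201 CPM in mutant libraries. All 3 were above the controls, replicate 1 by under 1 CPM, and the log2 fold change was 0.28 (SE 0.137, edgeR adjusted p = 0.683), or 0.14 without mutant replicate 2. Cox5a, a subunit of the matrix side, was the subunit gene of complex IV with the lowest log2 fold change. It was at 17.4, 18.5 and 18.7 CPM against 14.4, 18.1 and 17.7 CPM, a log2 fold change of -0.12 (SE 0.142), and only replicate 1 of the mutant group lay clearly under the controls.

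Cox7a2l is known as a factor for joining complexes III and IV into supercomplexes (chromosome 17, 83501919 to 83514333). RNA counts do not show whether it has this function in these mice. Its 3 control libraries were nearly equal, at 198.7, 198.9 and 198.1 CPM, and the mutant libraries were at 233, 356 and 231 CPM. All 3 were above the controls, and replicate 2 was far above replicates 1 and 3, which were close to each other. The log2 fold change was 0.46 (SE 0.183, edgeR adjusted p = 0.647), with a 95% confidence interval from 0.029 to 0.895. The estimate was 0.23 (SE 0.085, edgeR unadjusted p = 0.0403) without mutant replicate 2. Without any 1 of the 3 controls the unadjusted p by edgeR was 0.086 to 0.0941.

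Complex IV has subunits with a common and a tissue isoform, and levels within a pair were compared as CPM per kilobase of the canonical transcript. Cox4i2, the isoform of subunit 4 known from lung and from oxygen-sensing and mural cells, was close to Cox4i1, at 80.1%, 85.4% and 52.6% of its level per length in controls and 73.9%, 62.7% and 52.2% in mutant mDPCs. The share was lowest in replicate 3 of both groups. Cox4i2 (chromosome 2 from 152754173 to 152765037) was at 131, 145 and 97.2 CPM in controls and 137, 154 and 102 CPM in mutant libraries, a log2 fold change of 0.08 (SE 0.203, edgeR adjusted p = 0.934). The groups overlapped, and each replicate 3 was the lowest of its group.

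Pericytes and smooth muscle cells of vessels are a known site of Cox4i2. The 9 mural markers listed (Rgs5, Kcnj8, Abcc9, Pdgfrb and others) summed to 1050 to 1134 CPM in controls and 1175 to 1234 CPM in mutant libraries, and 0 of 8 tested were called. Log2 fold changes of these 8 ran from -0.52 for Cspg4 to 0.34 for Rgs5, 7 of them positive. All mutant libraries were above all controls in 2 of the 8 (Rgs5 and Kcnj8), against 7.26% of all genes. Of the 9 markers, 1 (Abcc9) was lowest in replicate 3 of both groups, as Cox4i2 was. The part of mural cells in the level of Cox4i2 was not tested.

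Cox6b2, the testis form of the intermembrane space subunit Cox6b1, was detected in all libraries at 14.5 to 15.4 CPM in controls and 16.1, 12.6 and 19.9 CPM in mutant mDPCs. Per length it was at 13.9% to 15.3% of Cox6b1 in controls and 9.27% to 20.7% in mutant libraries. Cox6b1 was at 111, 117 and 104 CPM against 114, 149 and 106 CPM. Neither gene of the pair was called, with log2 fold changes of 0.12 (SE 0.187) for Cox6b2 and 0.15 (SE 0.15) for Cox6b1.

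The heart and muscle isoforms were near absent. Cox7a1 had 14, 19 and 5 counts in controls and 19, 22 and 11 counts in mutant libraries, which is 0.707% to 1.85% of Cox7a2 per length. Cox6a2 had 1, 2 and 2 counts against 3, 4 and 6 counts, under 0.2% of Cox6a1 per length in every library. Cox8b, the muscle partner of Cox8a, and Cox7b2 and Cox8c, known from testis, had 2 counts each over all 6 libraries, and a count of 0 in a library allows up to 3 counts. Skeletal muscle markers were likewise low, at 4.72 to 6.84 CPM in sum over 10 genes.

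The common partners were abundant. Cox6a1 was at 111, 124 and 154 CPM in controls and 112, 126 and 148 CPM in mutant libraries, a log2 fold change of -0.02 (SE 0.164). Cox8a was at 152, 162 and 201 CPM against 155, 183 and 207 CPM, a log2 fold change of 0.08 (SE 0.158). In both genes each replicate 3 was the highest of its group, whereas Cox7a2, at 102, 99.6 and 74.0 CPM against 94.9, 118 and 71.5 CPM, was lowest there.

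Ndufa4 was once counted in complex I and is now placed in complex IV. It was at 122, 115 and 79.7 CPM in controls and 117, 154 and 82.7 CPM in mutant mDPCs, a log2 fold change of 0.16 (SE 0.256). Its paralogue Ndufa4l2, a target of hypoxia signalling that is also known from mural cells, showed the opposite pattern over replicates. Ndufa4l2 (chromosome 10 from 127514967 to 127517154) was at 9.28, 9.11 and 14.1 CPM in controls and 5.41, 5.30 and 15.9 CPM in mutant libraries.

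In replicates 1 and 2 the mutant libraries of Ndufa4l2 were below all controls, and in replicate 3 above all of them. The log2 fold change was -0.29 (SE 0.465, edgeR adjusted p = 0.885), with a confidence interval from -1.40 to 0.81. Without mutant replicate 3, Ndufa4l2 passed the study thresholds as lower (log2 fold change -1.02, SE 0.254, edgeR adjusted p = 0.083). In that fit 1 member was lower and 1 was higher, Ndufaf4 (log2 fold change 0.73, SE 0.234, edgeR adjusted p = 0.151), against 6.88% of all genes lower and 4.01% higher. In a fit without replicate 3 of either group, the adjusted p of Ndufa4l2 was 0.0375 by edgeR (log2 fold change -0.77), the only member with an adjusted p under 0.05 in any of the fits run, against 6.81% of all genes in that fit. At the study thresholds this fit had 1 member lower and 1 higher, against 7.55% and 4.49% of all genes. Per length, Ndufa4l2 was at 4.17%, 4.35% and 9.70% of Ndufa4 in controls and 2.54%, 1.89% and 10.5% in mutant mDPCs. A gene on the opposite strand, Shmt2, overlaps Ndufa4l2, and the counting did not use strand.

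**Figure D3:**
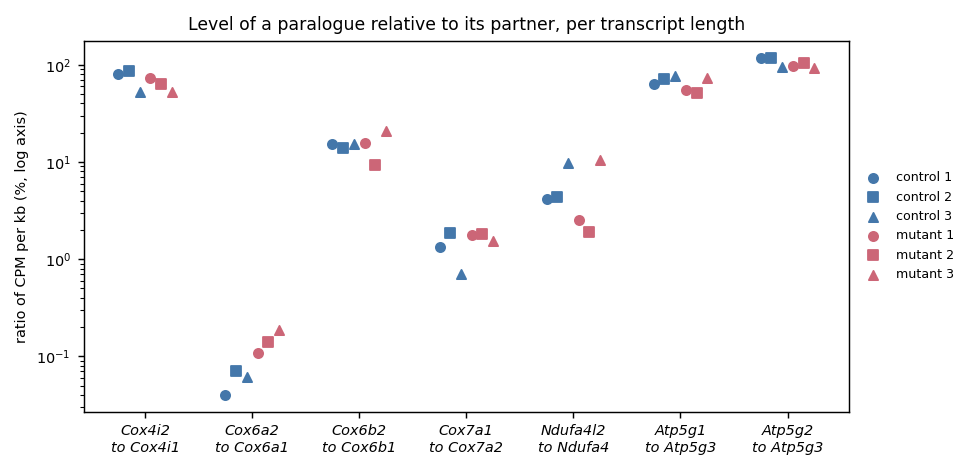
Level of a paralogue relative to its partner in each library, as the ratio of CPM per kilobase of canonical transcript (y axis, percent, log axis), for 7 pairs (x axis). Blue points are the 3 controls and red points the 3 mutant libraries. Cox4i2 lies at 52.2% to 85.4% of Cox4i1, whereas Cox6a2 stays under 0.2% of Cox6a1.

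The assembly genes of complex IV counted 20 genes tested, with 0 called, 14 positive values and a median log2 fold change of 0.055.

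In complex V, 14 of 16 subunit genes had a positive log2 fold change and the median was 0.193, the highest of the 5 complexes. The summed level was 2784, 2864 and 2760 CPM in controls and 3038, 3759 and 2789 CPM in mutant libraries, a ratio of 1.14, and the groups overlapped through replicate 3. Without mutant replicate 2 the ratio was 1.04. Atp5b encodes the catalytic beta subunit and had the highest mean CPM of all members. The gene spans 128083273 to 128090391 of chromosome 10 and was at 779, 818 and 825 CPM in controls and 901, 1110 and 789 CPM in mutant libraries. Replicates 1 and 2 of the mutant group were above all controls and replicate 3 was inside their range. The log2 fold change was 0.21 (SE 0.152, edgeR adjusted p = 0.735).

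The smallest p of the complex among positive values was that of Atp5g3, with a log2 fold change of 0.20 (SE 0.121, edgeR adjusted p = 0.708). Atp5g1, Atp5g2 and Atp5g3 encode the same mature subunit c of the rotor ring with different import sequences. Atp5g3 was at 168, 172 and 175 CPM in controls and 190, 224 and 174 CPM in mutant mDPCs. For Atp5g1 the values were 65.6, 75.1 and 82.1 CPM against 65.2, 71.6 and 79.1 CPM, a log2 fold change of -0.05 (SE 0.126). Atp5g2 was at 147, 150 and 122 CPM against 135, 174 and 121 CPM, a log2 fold change of 0.03 (SE 0.164).

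Per length the 3 genes of subunit c were of the same order. Atp5g2 was at 94.0% to 119% of Atp5g3 in controls and 93.4% to 105% in mutant libraries. Atp5g1 was at 63.1%, 70.7% and 75.8% of Atp5g3 in controls and at 55.4%, 51.6% and 73.2% in mutant mDPCs. The mutant replicates 1 and 2 were below all controls in that share and replicate 3 was within them. A near-identical processed pseudogene of Atp5g1 held 2108 counts over all libraries, against 8281 for Atp5g1 itself, so the level and share of Atp5g1 are uncertain. Atp5s, which shares the name but is not a subunit of the enzyme, was at 17.4, 17.2 and 12.6 CPM in controls and 13.4, 13.9 and 13.5 CPM in mutant libraries, a log2 fold change of -0.21 (SE 0.166, edgeR adjusted p = 0.754). The 4 assembly genes of complex V held 0 calls, with a median log2 fold change of 0.14.

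The nuclear subunits were set beside the mitochondrially encoded subunits of the same complexes. Of 13 such genes 10 were tested, with 7 higher at the study thresholds, against 1.1% of all genes, and 0 at an adjusted p under 0.05 by edgeR. In complex I, the summed CPM of the mitochondrially encoded genes was 3.19, 2.80 and 2.11 times that of the nuclear subunit genes in controls and 3.36, 5.53 and 4.69 times in mutant libraries. In complex IV the ratios were 6.85, 6.53 and 5.69 in controls and 8.08, 11.7 and 11.9 in mutant libraries. Both ratios were above all controls in each of the 3 mutant libraries. In mutant replicate 1 the excess over the highest control was small in complex I (3.36 against 3.19) and larger in complex IV (8.08 against 6.85). For complex III, where mt-Cytb is the one mitochondrially encoded subunit, the ratios were 6.72, 5.98 and 4.04 against 6.62, 9.64 and 8.14, and replicate 1 was within the controls.

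The mitochondrially encoded counts cover the complexes unevenly. While mt-Co1 was at 6902 to 8813 CPM in controls, mt-Co2 and mt-Co3 were at 8.17 to 31.0 CPM, and both complex V genes of the mitochondrial genome together at 3.79 to 14.2 CPM. Nuclear copies of mitochondrial DNA share reads with some of these genes, and their part in the levels was not tested.

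**Figure D4:**
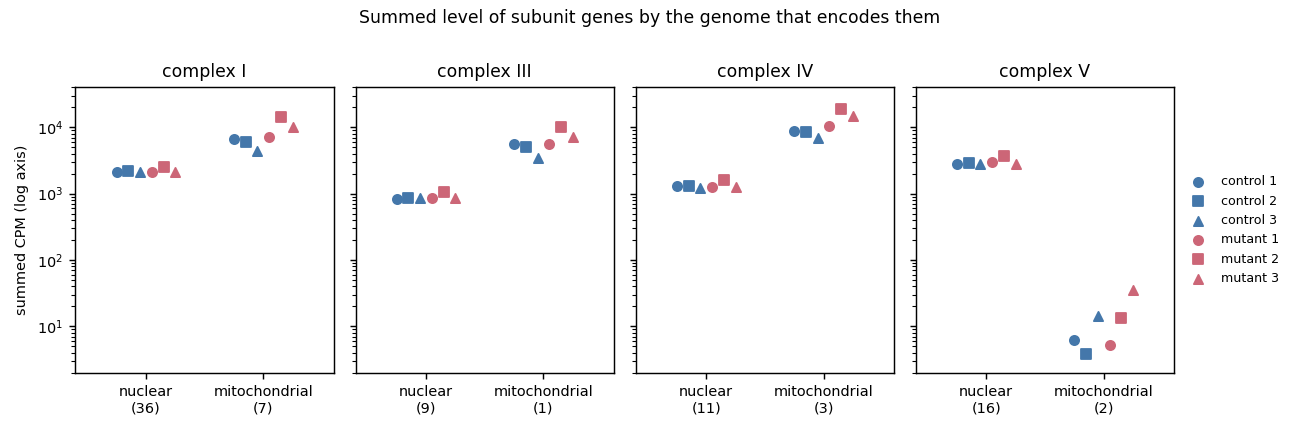
Summed CPM (y axis, log axis) of the nuclear and the mitochondrially encoded subunit genes of complexes I, III, IV and V, with the number of genes in parentheses, in 3 control (blue) and 3 mutant (red) libraries. Nuclear sums of complex I lie between 2094 and 2550 CPM, whereas mitochondrially encoded sums spread from 4434 to 14100 CPM.

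Further lists of nuclear genes, with mitochondrial roles or of glycolysis, also held no call. Of 17 genes of pyruvate dehydrogenase and the tricarboxylic acid cycle, 0 were called, 14 were positive and the median log2 fold change was 0.129. Of 16 genes of mitochondrial membranes and import (porins, translocases, carriers and prohibitins), 0 were called, 15 were positive and the median was 0.162. In 5 of the 16 (31.25%) all mutant libraries lay above all controls, against 7.26% of all genes, and in 0 below. The 15 genes of mitochondrial biogenesis and mitochondrial DNA expression, among them Nrf1, Tfam and Ppargc1a, held 0 calls with a median of 0.044. Ppargc1a, the coactivator of mitochondrial biogenesis, was low throughout, at 2.33 to 3.01 CPM in controls and 2.55 to 4.78 CPM in mutant libraries. The 20 genes of glycolysis held 0 calls, with a median of 0.038. In 2 of the 20 (10.0%) all mutant libraries lay below all controls, against 7.98% of all genes, and in 0 above. Among these was Pfkm, named after its values were seen, at 158.1 to 159.6 CPM in controls and 114.5 to 118.9 CPM in mutant libraries. Its log2 fold change was -0.447 (SE 0.089, edgeR adjusted p = 0.558), short of the study's size.

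Replicate 3 of both groups differed from the other libraries in members of low GC content. For each member, the log2 level of replicate 3 minus its group mean was averaged over both groups. Over the 30 members with the lowest GC content of the canonical transcript (39.5% to 48.5%) the median of this deviation was -0.175, and 26 of them were below 0. In the 30 members with the highest GC content (53.9% to 62.8%) the median was 0.118, and 6 were below 0. Across the 91 members the deviation correlated with GC content at r = 0.466 (Spearman's rho 0.499), and across all genes with a value at r = 0.341 (rho 0.407). These are correlations across genes measured in the same libraries, which are not independent replicates. The range ran from -0.67 for Cox7a1, which rests on few counts, to 0.72 for Ndufa4l2. Ndufs4, an accessory subunit of complex I chosen here for its low value, was at 34.7 and 37.4 CPM in replicate 3 of the 2 groups and at 55.2 to 79.3 CPM elsewhere.

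The median log2 fold change was 0.193 in the 30 members of lowest and 0.077 in the 30 of highest GC content. Under a block on the replicate number the median over all members was 0.098 and 0 members were called at the study thresholds, against 4.37% of all genes lower and 2.05% higher. By unadjusted p alone (under 0.05), edgeR with the block had 5 members higher and 0 lower, against 8.32% of all genes higher, and 0 members at an adjusted p under 0.05, against 0.975% of all genes. These 5 were Ndufa10, Ndufb9, Ndufs4, Ndufaf4 and Cox7a2l, named for that count, and their adjusted p with the block began at 0.184 by edgeR. Ndufb9 was at 6.95 to 9.41 CPM in controls and 7.75 to 13.4 CPM in mutant libraries. A gene on the same strand overlaps Ndufb9.

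**Figure D5:**
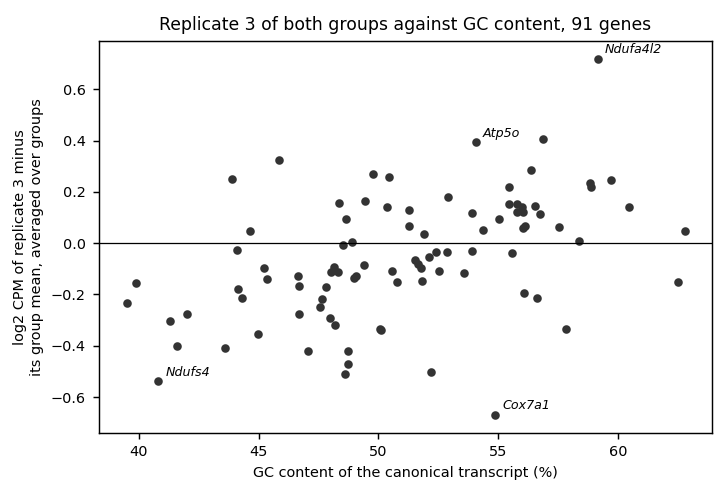
Deviation of replicate 3 from its group mean in log2 CPM, averaged over both groups (y axis), against the GC content of the canonical transcript in percent (x axis). Each point is 1 of the 91 members tested. Points of low GC content lie mostly below 0 and points of high GC content mostly above it, with a correlation of 0.466.

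Counts of some members are uncertain. Near-identical copies elsewhere in the genome were found for 18 members, and for Cox7c, Atp5h and Atp5l the rows of the copies held more counts over all libraries than the gene itself. Over the members without such a copy the median log2 fold change was 0.106, and over those with one 0.142. The row of Atp5o, which encodes the stalk subunit OSCP, had 52 to 91 counts per library. Among the genes of the current annotation that overlap it is Atp5po, so this row may not hold all reads of OSCP. Genes on the same strand overlap 8 members, among them Atp5o, Ndufb2 and Ndufb9. Reads in such shared stretches cannot be assigned to 1 gene. Genes on the opposite strand overlap 59 members.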

How the data were processed

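According to the study methods and the processing notes of the submitters, paired reads were aligned with HISAT2 and counted per gene with HTSeq without strand information. The table deposited by the authors holds raw counts per gene and library, with no normalization. Its columns of fold changes and p-values from the authors' own DESeq2 test were not used. The notes name GRCm39, but gene positions in the table share a start or end with RefSeq GRCm38.p6 for 47.4% of 24547 shared genes and with GENCODE GRCm39 for 1.3% of 30436, so that positions are given as GRCm38.

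Counts were analysed with edgeR 4.0.16 by its robust quasi-likelihood test on TMM-scaled libraries, after filterByExpr had removed low genes (minimum count 10), and p-values were adjusted by Benjamini-Hochberg over every gene in the fit. CPM are TMM-scaled, and log2 CPM used a prior count of 2. The script was tested on simulated data. Transcript lengths, GC content and copies (BLAST 2.17.0, at least 97% identity over at least 150 bases) come from the canonical GENCODE transcripts.

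Same-numbered libraries correlated in their deviations at 0.453, 0.465 and 0.663, so the replicate numbers, which come from the sample titles and, for replicate 3, the descriptions, were taken to pair the libraries in an alternative fit. Control replicate 2 correlated as closely with mutant replicate 1 (0.455), so only the pair of replicate 3 is set apart. Because deviations cancel out within a group, the values of replicates 1 and 2 partly follow from that of replicate 3. No libraries were identical. Alternatives were DESeq2 1.42.0, limma 3.58.1 voom with quality weights, other library sizes and filters, and leaving out libraries. The members and gene lists were chosen with earlier results of these data known. Genes named are those called, those with the smallest p in each direction or the highest mean CPM in each complex, isoform pairs, subunit c, untested members, complex II, Cycs and Cyc1, and any other is said to be chosen after its values were seen. 1 gene that this rule names is not reported here.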

Additional observations from a re-analysis of the deposited data

How the results depend on the processing

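DESeq2, RLE size factors, library sizes without mitochondrially encoded genes or without the 100 highest genes, a filter that asks for 10 counts in each library, no filter and the replicate block each left 0 members called in either direction at the study thresholds, against 1.89% to 4.37% of all genes lower and 1.04% to 2.05% higher. With limma voom and quality weights, 2 members were lower, Ndufs5 and Ndufa4l2 (log2 fold changes -0.62 and -0.69), and 0 were higher, against 6.67% of all genes lower. Leaving out 1 library gave 0 to 1 lower and 0 to 1 higher, with the calls only without mutant replicate 3, where Ndufa4l2 was lower at -1.02 and 6.88% of all genes were lower and 4.01% higher. In the fit without replicate 3 of either group, 1 was lower and 1 higher, against 7.55% and 4.49% of all genes, and 1 was lower at an adjusted p under 0.05 by edgeR (Ndufa4l2, -0.77), against 6.81% of all genes in either direction. The cause was not tested. With the replicate block, the median log2 fold change of members was 0.098, and pairing by number changed no call of a member. That median was 0.014 to 0.172 over the fits without 1 library, and 0.021 by voom. For the 28 genes named by rule, 419 values were computed under alternatives, and 3 of them passed the study thresholds, all of Ndufa4l2 and all lower. For complex I assembly factors the median was -0.067 by voom and -0.046 without mutant replicate 2. With 3 pools a group and a biological coefficient of variation of 25.3%, the median standard error of a log2 fold change was 0.155 in members.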
